A study of Drosophila melanogaster with 2 samples.

Results

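The peaks described here are binding sites of CG4404 that lie just 5′ of a promoter and read onto a single strand. A peak was taken when its summit, the position of highest enrichment, lay within 500 bp of an annotated protein-coding transcription start site (TSS), when every protein-coding TSS within 500 bp was on 1 strand, and when the summit was upstream of the nearest of them. Of the 3835 peaks on the 7 main chromosome arms, 713 (18.6%) met this rule, and they are called upstream peaks below. They were set against 162 downstream peaks, chosen in the same way but with the summit inside the transcribed side of the TSS, and against 490 divergent peaks, whose summit lay upstream of the nearest TSS of each strand. A further 124 peaks lay near TSSs of both strands in another arrangement, and 2346 lay over 500 bp from any protein-coding TSS.

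The peaks come from chromatin immunoprecipitation followed by sequencing (ChIP-seq) of whole Drosophila melanogaster embryos aged 0 to 4 h. The embryos came from transgenic flies of the CG4404-GFP strain, in which CG4404 is fused to enhanced green fluorescent protein (eGFP), and the fusion protein was precipitated with an antibody against GFP. There were 2 biological replicates of this 1 group, sheared by sonication to 200 to 800 bp, and embryos without the tag or an input library were not analysed here. Whole embryos mix all cell types and several developmental steps, so that a site bound in few cells and a site bound weakly in many cannot be told apart.

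CG4404 belongs to the MADF-BESS family, proteins with a Myb-related MADF domain that binds DNA and, in most members, a BESS domain that binds other proteins. Adf1, the founding member, is a transcription factor that binds promoters and was purified on the Adh promoter. In Drosophila, promoters differ by their elements: a TATA box or Initiator is typical of regulated genes, GAGA tracts recruit the GAGA factor and CLAMP, and the DNA replication-related element (DRE) and the Ohler motifs are typical of genes used in every cell.

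Some of the strongest upstream peaks are shown first, because they show the stretches rich in A and T that recur across the group. Each line gives the 101 bases centred on the summit, 5′ to 3′ on the strand of the gene, in the dm6 assembly (NCBI RefSeq copy, Release 6). Capitals mark the TATA word TATAAA, the word ATTTAAA or the word CACTG on either strand. The sequence upstream of CG14100 (chr3L:19590565-19590665, minus strand) and that upstream of ph-p (chrX:2137279-2137379, minus strand) hold none of these, and those of CG11857 (chr3R:25258759-25258859, plus strand) and CG18549 (chr3R:12449114-12449214, plus strand) hold TATAAA. The windows at NimC4 and gish, with lower signals of 1072 and 949, hold none of these words and are not shown. Ugalt, px, mRpL41, Sox14, CG1888, eIF6 and Fkbp14 rank between ph-p and CG11857, with signals from 1195 to 2294. They are not shown either. The windows printed here therefore do not give the frequency of these words among the strongest peaks.
CG14100: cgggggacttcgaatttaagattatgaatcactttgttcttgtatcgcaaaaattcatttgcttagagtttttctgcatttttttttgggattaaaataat
ph-p: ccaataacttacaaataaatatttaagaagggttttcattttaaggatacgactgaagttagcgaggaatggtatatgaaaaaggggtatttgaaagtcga
CG11857: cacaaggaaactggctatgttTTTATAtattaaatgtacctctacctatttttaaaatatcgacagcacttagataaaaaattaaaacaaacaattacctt
CG18549: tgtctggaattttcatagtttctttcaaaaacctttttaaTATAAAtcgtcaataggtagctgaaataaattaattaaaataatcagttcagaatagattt

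The next windows, of 201 bases, show examples of words of 8 bases that were more frequent at upstream summits than in their flanks. In each window only the word named for it is in capitals, on either strand. Other such words in it are not marked. RluA-1 (chr2L:10474416-10474616, minus strand) and Rtnl1 (chr2L:4997547-4997747, minus strand) carry CACAGTGG, Phs (chr3L:15619668-15619868, plus strand) and CG6415 (chr2L:10703390-10703590, plus strand) carry CAACACTG, and PAN3 (chr3L:3081320-3081520, plus strand) and spi (chr2L:19575662-19575862, minus strand) carry CACTGTGC. In most of them the marked word stands near an end of the window, and in Phs one of the pair lies near the summit.
RluA-1: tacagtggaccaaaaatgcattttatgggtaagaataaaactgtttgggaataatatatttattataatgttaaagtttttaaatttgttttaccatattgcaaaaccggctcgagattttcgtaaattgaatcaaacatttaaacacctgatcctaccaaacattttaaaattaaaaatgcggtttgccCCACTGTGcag
Rtnl1: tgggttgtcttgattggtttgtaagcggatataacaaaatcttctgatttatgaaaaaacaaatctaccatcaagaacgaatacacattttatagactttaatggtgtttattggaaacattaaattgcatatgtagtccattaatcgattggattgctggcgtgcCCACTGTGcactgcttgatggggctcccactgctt
Phs: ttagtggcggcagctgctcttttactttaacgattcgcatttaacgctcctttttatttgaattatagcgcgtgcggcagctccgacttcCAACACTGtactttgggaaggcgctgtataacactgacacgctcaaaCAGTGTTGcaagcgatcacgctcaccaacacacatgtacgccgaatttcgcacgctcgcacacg
CG6415: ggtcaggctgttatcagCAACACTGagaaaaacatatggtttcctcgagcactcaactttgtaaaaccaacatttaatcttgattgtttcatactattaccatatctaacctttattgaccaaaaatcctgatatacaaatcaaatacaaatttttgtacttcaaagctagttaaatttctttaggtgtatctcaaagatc
PAN3: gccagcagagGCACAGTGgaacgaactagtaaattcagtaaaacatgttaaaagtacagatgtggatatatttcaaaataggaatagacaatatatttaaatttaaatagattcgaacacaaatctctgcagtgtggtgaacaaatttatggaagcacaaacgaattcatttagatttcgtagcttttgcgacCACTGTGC
spi: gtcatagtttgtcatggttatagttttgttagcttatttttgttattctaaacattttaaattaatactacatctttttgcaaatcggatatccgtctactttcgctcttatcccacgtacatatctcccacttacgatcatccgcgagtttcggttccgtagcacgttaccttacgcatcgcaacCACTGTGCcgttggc

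Upstream summits gathered 100 to 250 bp before the TSS. Their distances ran from 1 to 499 bp, with a median of 195 bp and quartiles of 126 and 297 bp. The bin from 151 to 200 bp was the fullest, with 119 peaks, and the bin from 1 to 50 bp held 36. Peaks in the middle of this range were also the stronger ones. The deposited signal is the peak caller's own value, whose scale the labels and headers do not give. It had a median of 123 among the 131 peaks at 1 to 100 bp and of 163 among the 235 peaks at 101 to 200 bp. It was 170 among the 174 peaks at 201 to 300 bp, 120 among the 101 peaks at 301 to 400 bp and 117 among the 72 peaks at 401 to 500 bp. The quartiles of neighbouring classes overlap (104 to 331 at 101 to 200 bp, 82.8 to 180 at 1 to 100 bp). Over all 713 peaks the rank correlation of distance and signal was -0.02, which describes a level that is highest in the middle rather than one that climbs with distance.

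**Figure D1:**
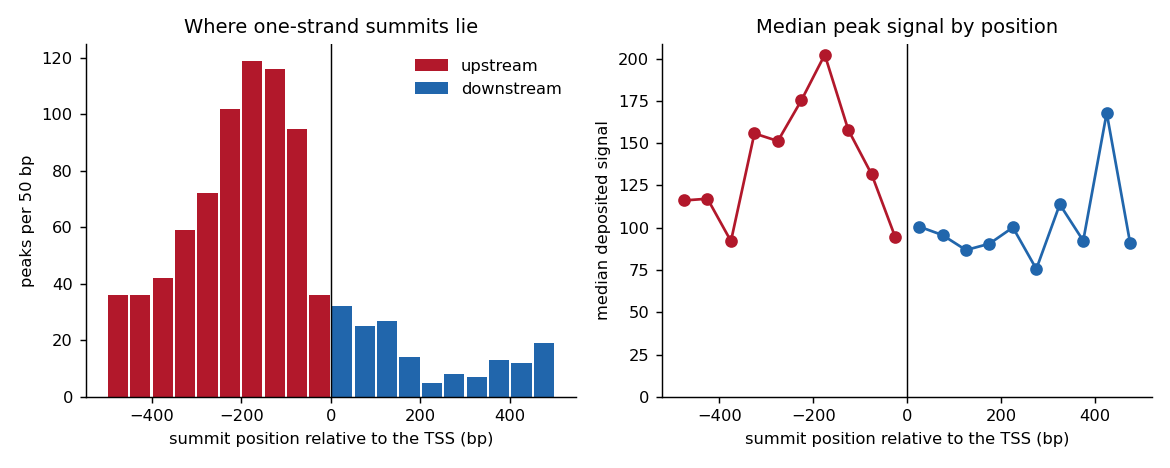
The left panel counts upstream peaks (red) and downstream peaks (blue) per 50 bp of distance from the TSS, and the right panel gives the median deposited signal in each bin. Upstream counts and medians are highest in the bin from 151 to 200 bp (119 peaks, median signal 202), and the downstream bins hold 5 to 32 peaks each.

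At the limit of the rule, the members farthest out were prtp at 499 bp (signal 258), twz at 498 bp (16.9) and CG6040 at 495 bp (70.5). The peaks just outside lay 501 bp upstream of CG43401 (74.2), Hsp22 (90.1) and CG12402 (85.2). The summits nearest a TSS were those of RpL30 and hpo at 1 bp (123 and 127) and CG7849 at 3 bp (35.1).

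Upstream peaks were stronger and recurred more often than downstream peaks. Their median signal was 144 (quartiles 93.9 and 269), against 95.9 (74.9 and 160) for downstream peaks, 168 (104 and 288) for divergent peaks and 118 for the whole list. Of the upstream peaks, 240 (33.7%, 95% Wilson interval 30.3 to 37.2) were in the top 25% of the list by signal, against 29 of the downstream peaks (17.9%, 12.8 to 24.5). The difference of 15.8 percentage points passed Fisher's exact test (two-sided, Benjamini-Hochberg adjusted p = 0.000134 over 4 such comparisons). Peaks of the thresholded lists of both replicates overlapped 450 upstream peaks (63.1%, 59.5 to 66.6), beside 53.2% of all peaks, and 59 downstream peaks (36.4%, 29.4 to 44.1; exact adjusted p = 2.95e-09). Neither difference passed at a stricter threshold or in the list of replicate 2 alone. At an irreproducible discovery rate (IDR) of 0.001, with 512 upstream and 73 downstream peaks, they were 12.9 and 4.33 percentage points (exact adjusted p = 0.116 and 0.513), and in the list of replicate 2 alone 11.7 and 8.0 points (exact adjusted p = 0.135 for each).

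Against divergent peaks no difference in strength passed. The top 25% held 33.7% of upstream and 38.8% of divergent peaks (34.6 to 43.2, exact adjusted p = 0.101), and both replicates held 63.1% of upstream and 67.1% of divergent peaks (62.9 to 71.2, exact adjusted p = 0.158). With a TSS window of 250 bp in place of 500 bp the divergent peaks were the stronger ones, by 15.1 percentage points in the top 25% (exact adjusted p = 1.47e-05) and by 12 points in both replicates (exact adjusted p = 0.000369). These tests treat peaks as independent, whereas 54 upstream peaks overlap another upstream peak, and the p-values measure the spread over peaks and not over embryos.

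Upstream peaks were also found in the list of each replicate. Called separately, replicate 1 held 637 upstream peaks of 2957 (21.5%) and replicate 2 held 507 of 2479 (20.5%), a mean share of 21.0% ± 0.77 (SD, n = 2), and the median distances were 187 and 197 bp. Of the 713 peaks, 593 overlapped a thresholded peak of replicate 1 and 494 one of replicate 2, while 76 overlapped neither. The value of a peak in each replicate was taken as the highest signal among the overlapping candidate peaks of that replicate. It could be had in both for 706 peaks, whose rank correlation was 0.876, and 515 of these were higher in replicate 1. Where peaks overlap, a weak one then shows the value of its stronger neighbour: all 24 upstream peaks with a signal under 20, such as the one at twz, overlap another peak of the pooled list.

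**Figure D2:**
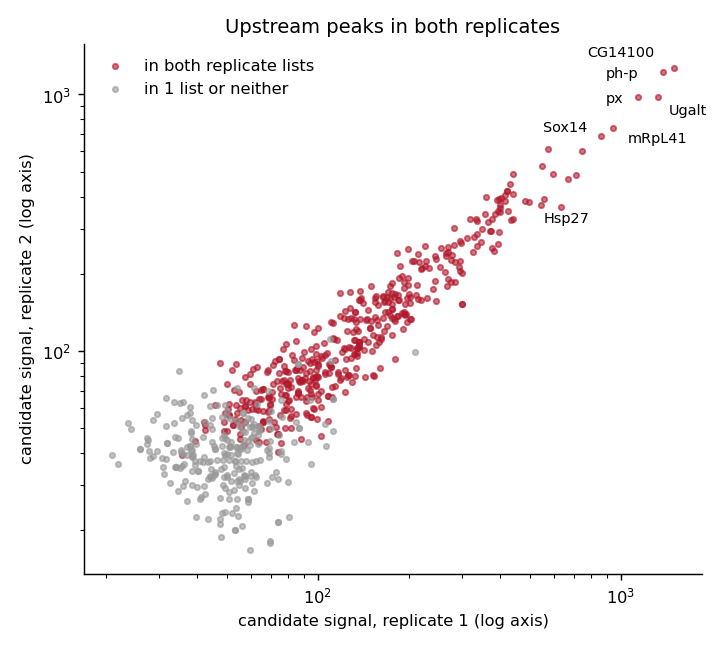
Each point is 1 of the 706 upstream peaks with a candidate peak in both replicates, placed by its signal in replicate 1 and in replicate 2 on log axes, and coloured red where thresholded peaks of both replicates overlap it. The points lie along the diagonal (rank correlation 0.876), the named peaks at the top right and the grey ones at the bottom left.

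The strongest peak of the whole list, 91 bp upstream of CG14100 on 3L, was an upstream peak. Its signal was 2755 in the pooled list, 1498 in replicate 1 and 1267 in replicate 2. For the peaks named after it, the pair in brackets gives replicate 1 and then replicate 2. The summit fell in the short stretch between CG14100 and ash1, a trithorax group histone methyltransferase gene that ends 249 bp before this TSS on the same strand. The next was at ph-p, which encodes the Polycomb group protein Polyhomeotic-proximal, with 2530 (1381 and 1221 in replicates 1 and 2). That summit lay 474 bp upstream of the nearest TSS and in an intron of the gene itself. ph-p has a closely similar tandem copy, ph-d, and how reads that fit both were placed is not given in the sources used here. Ugalt, the transporter of UDP-galactose into the Golgi, followed with 2294 (1323 and 980) at 39 bp, and px, the wing vein gene plexus, with 2106 (1144 and 973) at 200 bp. In these 4 peaks replicate 1 had the higher value.

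The peak at mRpL41, a protein of the large mitochondrial ribosomal subunit, had a signal of 1672 (942 and 737) at 139 bp. Sox14, an HMG-box transcription factor, had 1553 (860 and 688) at 242 bp. CG1888 had 1326 (745 and 601) at 229 bp, with the summit in its own 5′ untranslated region (UTR). eIF6, which acts in the maturation of the large ribosomal subunit, had 1196 (709 and 487) at 110 bp, and an antisense non-coding RNA starts on the other strand within 500 bp of it. Fkbp14, a peptidyl-prolyl isomerase of the endoplasmic reticulum, had 1195 (576 and 615) at 121 bp and was one of the few in which replicate 2 was higher.

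Lower in the ranking, the peak at NimC4, the phagocytic receptor also called Six-microns-under, had 1072 (549 and 525) at 216 bp and sat in an intron of nAChRalpha5, a subunit of a nicotinic acetylcholine receptor. The casein kinase gene gish had 949 (559 and 392) at 156 bp. Atf3, a bZIP transcription factor, had 913 (544 and 370) at 226 bp. The gene for, which encodes a cGMP-dependent protein kinase, had 885 (431 and 448) at 345 bp. Hsp27, a small heat shock protein, had 858 (484 and 384) at 148 bp. The neuronal RNA-binding protein gene elav had 848 (442 and 410) at 251 bp, with the summit in an intron of arg.

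The others of the 25 strongest that recurred in both replicates were at CG11857, CG18549, TRAM, CG13921, MFS10, Tina-1, brwl, RluA-1, MFS18 and RapGAP1, with signals from 798 to 1133. Over all 25, the distance ran from 39 to 474 bp with a median of 151 bp, and replicate 1 was higher in 22. Summits lay between genes in 12, in an intron of the bound gene in 6 and in its 5′ UTR in 3. TATAAA was present within 100 bp of the summit in 11, the Initiator word TCAGT in 14, and DRE in 0.

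Most upstream peaks were single: 608 genes had 1 and 48 had more, to make 656 genes in all. Rtnl1, a reticulon that shapes the endoplasmic reticulum, had 5 upstream peaks at its alternative TSSs, all in introns. They had signals of 767, 430, 249, 219 and 79.5, of which the 249 and the 79.5 peaks overlap. dnc, the cAMP phosphodiesterase gene dunce, also had 5, with 440, 246, 121, 38.1 and 2.81, of which the 121 and the 2.81 peaks overlap. Ptpmeg2, a tyrosine phosphatase, had 4, with 494, 342, 139 and 86.8. Each of these genes has 6 to 9 annotated TSS positions, so that "upstream" is for many of their peaks also inside the gene.

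Between genes lay 384 of the summits (53.9%). Introns of protein-coding genes held 254 (35.6%), and 214 of these were introns of the bound gene, upstream of one of its inner TSSs. The 5′ UTR of the bound gene, as read from another transcript, held 34 summits, non-coding exons 19, 3′ UTRs 12, introns of non-coding genes 7 and coding exons 3. A non-coding transcript started on the opposite strand within 500 bp of 32 summits (4.49%). Of these, eIF6 and brwl were among the 25 strongest.

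Behind the promoter, a gene of the same direction was the most frequent neighbour, at upstream peaks and at genes with no peak alike. The next protein-coding gene upstream pointed the same way at 353 peaks (49.5%, 45.9 to 53.2), the other way at 284 (39.8%, 36.3 to 43.5), and at 76 (10.7%, 8.60 to 13.1) the TSS lay inside another gene. Among 9344 genes with no summit within 500 bp of any TSS and no opposite TSS within 500 bp of the first one, it pointed the same way at 50.8% and the other way at 29.8%, and 19.3% (18.5 to 20.1) lay inside another gene. The rule keeps TSSs of the other strand 500 bp from the summit at upstream peaks but 500 bp from the first TSS at genes with no peak, and many upstream peaks belong to inner TSSs. These shares were therefore not tested, and intervals cover counting error only.

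A and T made up most of the sequence at upstream summits. In windows of 100 bp on either side, the median G+C content was 34.3%, against 39.8% in windows of equal width 400 bp farther upstream, 41.8% at downstream summits, 32.3% at divergent summits and 35.8% in 9344 promoters with no peak, read 195 bp upstream of the TSS. The A+T content climbed to 67.9% in the 20 to 60 bp on the far side of the summit and fell to 52% by 260 to 280 bp toward the gene. At divergent summits the highest value was 73.8%, and in promoters with no peak 63.4%.

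Of 24 motifs counted on both strands, 4 (16.7%) were more frequent in the 201 bp at upstream summits than in the flank by the exact McNemar test (two-sided, adjusted over the 24), and none was less frequent. A run of 6 A or 6 T stood in 326 windows (45.7%), against 235 flanks (33%, exact adjusted p = 1.68e-05), and in 40.8% of all 13968 protein-coding promoters in windows of the same length centred 195 bp upstream. The Initiator word TCAGT stood in 36.6% of summits, against 28.1% of flanks (exact adjusted p = 0.00943) and 28.9% of all promoters. The TATA word TATAAA stood in 35.9%, against 29.0% of flanks (exact adjusted p = 0.0494) and 34.8% of all promoters. Ohler 7, a core promoter motif of broadly used genes, stood in 8.27%, against 4.63% of flanks (exact adjusted p = 0.0494) and 5.56% of all promoters. The G+C difference between summit and flank moves with the A run and TATA results, and its part in them was not tested. The A run passed under every alternative tried. TATAAA was lost in the conservative list and in the list of replicate 1 alone, and the Initiator word in windows of 50 bp either side and with a flank at 1000 bp. Ohler 7 was lost with a TSS window of 1000 bp, at an IDR of 0.001, in the list of replicate 2 alone, with 1 summit per merged region, with TSSs of all annotated genes, in windows of 50 bp either side and without the peaks of signal under 20, an exclusion chosen after the data were seen. Less frequent motifs numbered 2 in windows of 50 bp either side, 3 with the flank at 1000 bp and 1 in the list of replicate 1 alone. None of 16 motifs that can be read in a direction (0.0%) faced the gene more often on one strand by the exact binomial test, although 2 had an unadjusted exact p under 0.05, Ohler 7 with 67.3% toward the gene and the Pho word GCCAT with 59.5%.

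The comparison with the other promoter peaks set apart mainly the divergent ones. Against downstream peaks, 1 of 24 motifs (4.17%) passed Fisher's exact test: TATAAA, in 35.9% of upstream and 21.0% of downstream summits (exact adjusted p = 0.00503). It no longer passed in the conservative list, at an IDR of 0.001, in either replicate's own list or in windows of 50 bp either side. Against divergent peaks 11 of 24 (45.8%) passed.

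Higher at upstream than at divergent summits were 5 motifs: the Initiator, GAGA, CLAMP, Zeste and CTCF words. TCAGT stood in 36.6% of upstream and 26.3% of divergent summits (exact adjusted p = 0.000637). The GAGA word GAGAG stood in 24.3% of upstream and 15.1% of divergent summits (exact adjusted p = 0.000452), and in 20.2% of all promoters. The CLAMP word GAGAGAGA was in 17 of 713 upstream windows (2.38%) and in 0 of 490 divergent ones, where a share under 0.612% could go unseen (exact adjusted p = 0.000637), beside 1.96% of all promoters. The Zeste word TGAGTG stood in 9.12% of upstream and 3.47% of divergent summits (exact adjusted p = 0.000452), beside 7.44% of all promoters, and the CTCF word AGGNGGC in 5.47% of upstream and 2.65% of divergent summits (exact adjusted p = 0.0446), beside 5.30% of all promoters.

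Lower at upstream than at divergent summits were 6 motifs. DRE, TATCGATA, stood in 3.09% of upstream and 9.18% of divergent summits (exact adjusted p = 5.43e-05), and in 2.73% of all promoters. The word CGATA, bound by BEAF-32 in repeats, stood in 27.5% of upstream and 45.3% of divergent summits (exact adjusted p = 4.10e-09), beside 27.3% of all promoters, and Ohler 7 in 8.27% of upstream and 21.0% of divergent summits (exact adjusted p = 4.10e-09). TATAAA stood in 35.9% of upstream and 50.4% of divergent summits (exact adjusted p = 4.62e-06), the homeodomain word TAATTA in 16.8% of upstream and 24.9% of divergent summits (exact adjusted p = 0.00178, 18.2% of all promoters) and the pita and ZIPIC word CAGGGCT in 2.24% of upstream and 6.12% of divergent summits (exact adjusted p = 0.00178, 1.55% of all promoters). With the TSS window at 250 bp, only TATAAA and Ohler 7 of the 11 passed. Divergent summits hold slightly less G+C (32.3% against 34.3% at upstream summits). They also lay nearer to a TSS, at a median of 105.5 bp against 195 bp, so that their windows reach the core promoter more often. The part of either difference in the result was not tested.

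**Figure D3:**
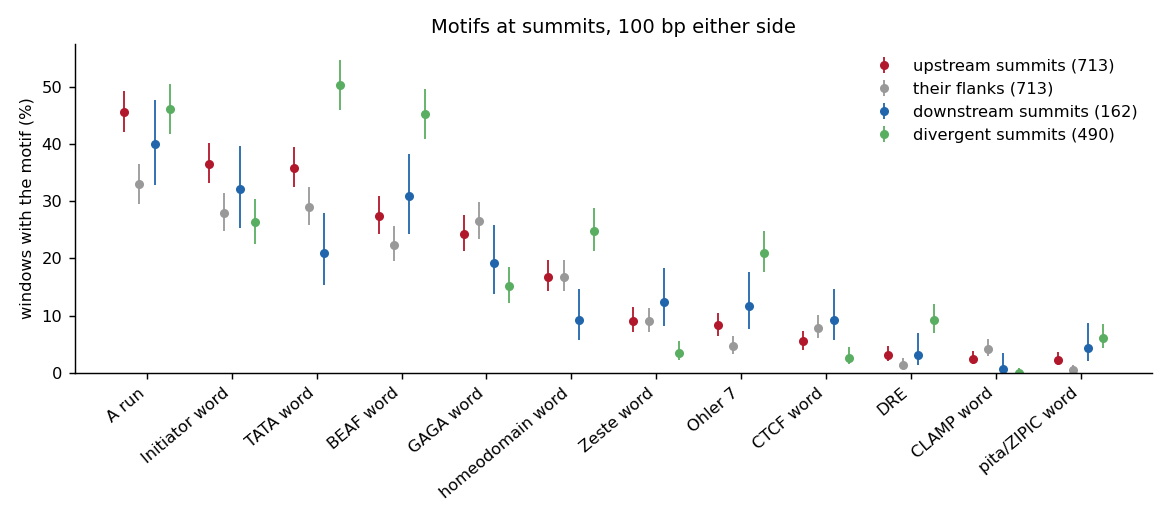
Share of 201-bp windows that hold each of 12 motifs at upstream summits (red), in their flanks 400 bp farther upstream (grey), at downstream summits (blue) and at divergent summits (green), with 95% Wilson intervals. The widest gaps between red and green are those of the BEAF word (27.5% of upstream and 45.3% of divergent summits), the TATA word (35.9% of upstream and 50.4% of divergent summits) and Ohler 7 (8.27% of upstream and 21.0% of divergent summits).

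Without a preset list, 6 of 32896 words of 8 bases, each counted with its reverse complement (0.0182%), were more frequent at upstream summits than in the flank after adjustment over all words. They fall into 3 kinds. The A- and T-only words ATTTAAAA (104 summits, 14.6%, against 36 flanks, 5.05%, exact adjusted p = 4.25e-05) and TTAAAAAA (13.9% of summits against 6.31% of flanks, exact adjusted p = 0.0220) stood in 11.5% and 10.1% of all promoters of the same length. The words CACAGTGG (50 summits, 7.01%, against 11 flanks, 1.54%, exact adjusted p = 0.000301) and CACTGTGC (6.73% of summits against 2.10% of flanks, exact adjusted p = 0.0477) stood in 0.866% and 0.945% of all promoters. The words CAACACTG (31 summits, 4.35%, against 4 flanks, 0.561%, exact adjusted p = 0.0285) and AGTGTTGC (22 summits, 3.09%, against 1 flank, 0.140%, exact adjusted p = 0.0376) stood in 1.24% and 0.873% of all promoters. Words of a kind overlap in sequence and are often the same site. CACAGTGG or CACTGTGC was found at 59 summits, CAACACTG or AGTGTTGC at 39, and both kinds at 3. The list of replicate 1 alone called 2 words, both A- and T-only, and that of replicate 2 alone called 4 of that sort. Neither called a word with C or G.

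The same 6 words were then counted at 3099 peaks that are not upstream peaks, a test added after the words were known. Their summit and flank windows overlap no summit window of an upstream peak. All but AGTGTTGC passed there, with CACAGTGG at 4.13% of summits and 1.00% of flanks (exact adjusted p = 1.78e-16), CACTGTGC at 4.65% of summits and 1.10% of flanks (exact adjusted p = 1.05e-18), CAACACTG at 1.87% of summits and 0.678% of flanks (exact adjusted p = 4.51e-05), and ATTTAAAA at 10.4% of summits and 4.19% of flanks (exact adjusted p = 1.36e-20). AGTGTTGC stood at 1.10% of summits and 0.678% of flanks (exact adjusted p = 0.105). By position, CAACACTG stood at 4.35% of upstream summits, 5.75% of divergent summits and 0.769% of the summits over 500 bp from a TSS. CACAGTGG stood at 7.01% of upstream summits, 2.26% of divergent summits and 4.74% of the summits over 500 bp from a TSS. At 149 downstream peaks, ATTTAAAA stood at 10 summits and 11 flanks (6.71% and 7.38%). TTAAAAAA stood at 12 and 14 there (8.05% and 9.40%) and AGTGTTGC at 1 and 3 (0.671% and 2.01%), too few to read a direction. CAACACTG stood at 1.34% of both there. CACAGTGG (5 summits and 1 flank, 3.36% and 0.671%) and CACTGTGC (10 and 1, 6.71% and 0.671%) were higher at the summit. These shares by position were not tested. The flank lies 400 bp upstream by the strand of the nearest TSS. It therefore falls before the TSS at most downstream peaks and toward the opposite gene at divergent peaks, so summit and flank compare unlike positions across the parts.

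CACTG and GAGAG were sparse at the summit and denser on either side, while ATTTAAA was densest at the summit. CACTG, a core of CAACACTG and CACTGTGC that was picked after their values were seen, was in the 201-bp window of 327 upstream peaks (45.9%), 224 flanks (31.4%) and 28.3% of all promoters. In bins of 40 bp it stood in 7.15% of windows within 20 bp of the summit, in 13.6% at 60 to 100 bp on the far side and in 18% at 60 to 100 bp toward the gene. Promoters with no peak, read from the point 195 bp upstream of the TSS, held it in 5.95%, 5.54% and 6.55% of the same bins. GAGAG had a deeper hollow: 3.09% of windows within 20 bp of the summit, 11.9% at 140 to 180 bp on the far side and 13.6% at 100 to 140 bp toward the gene, against 5.37%, 4.21% and 7.84% in promoters with no peak. ATTTAAA stood in 7.29% of windows within 20 bp of the summit, 1.68% at 260 to 300 bp on the far side and 0.982% at 260 to 300 bp toward the gene, against 4.61%, 3.51% and 1.98% in promoters with no peak. Over 201 bp it was in 23.7% of upstream summits, 13.9% of flanks and 21.4% of all promoters. A+T content runs the same way as ATTTAAA, and its part in these profiles was not tested.

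**Figure D4:**
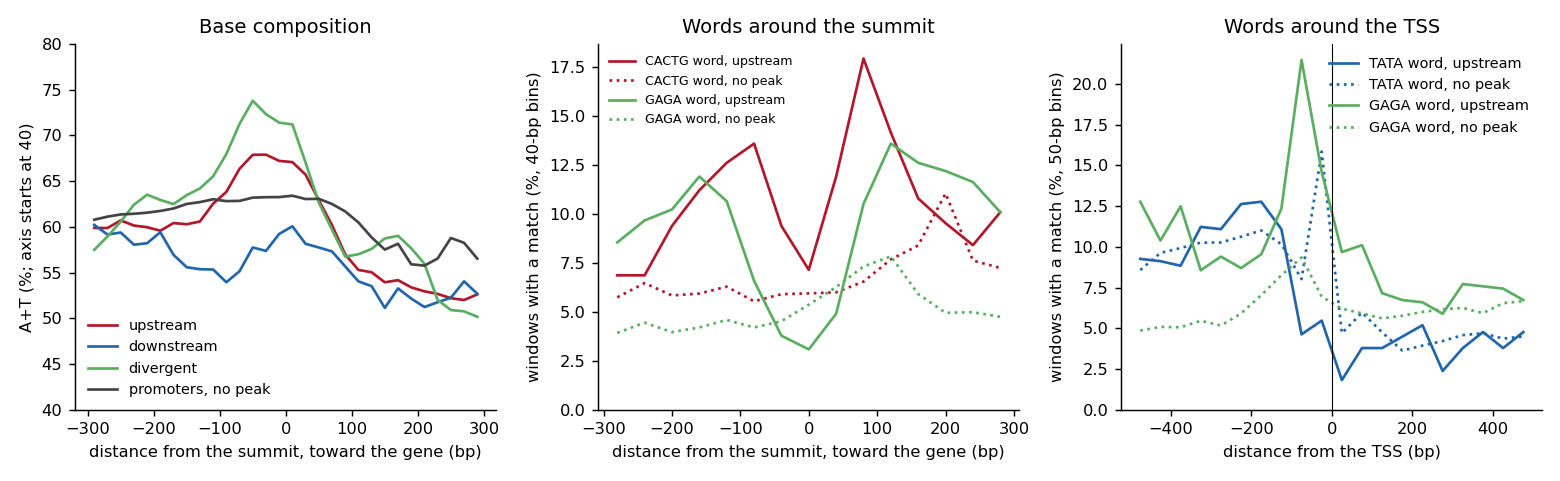
Left, A+T content in 20-bp steps around upstream (red), downstream (blue) and divergent (green) summits and around the point 195 bp upstream of TSSs with no peak (black). Middle and right, share of windows with the CACTG word, the GAGA word or the TATA word by distance from the summit and from the TSS, solid for upstream peaks and dotted for promoters with no peak: the summit is a low for the CACTG word (7.15%) and for the GAGA word (3.09%), and the TATA word at 0 to 50 bp before the TSS is at 5.47% of windows for upstream peaks and 15.8% for genes with no peak.

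Next to the TSS itself, the genes of upstream peaks carried other elements than genes with no peak. This comparison, added after the profiles were seen, took the 101 bp that end at the TSS of 656 genes with an upstream peak and of the 9344 genes with no peak, and 8 of 24 motifs (33.3%) passed Fisher's exact test. At genes with an upstream peak, the TSS taken was the one nearest their strongest upstream peak, for many an inner TSS. At genes with no peak it was the first TSS. The part of this mismatch in the results was not tested. GAGAG was in 183 windows (27.9%, 24.6 to 31.4) of genes with an upstream peak and in 14.3% of those with no peak (exact adjusted p = 1.50e-16), beside 13.3% of all promoters. GAGAGAGA was in 4.57% of genes with an upstream peak and 1.18% of genes with no peak (exact adjusted p = 3.30e-08), beside 1.25% of all promoters. The Adf1 word GCNGCNGC, a simplified form of the repeats bound by the family's founder, was in 80 windows (12.2%, 9.91 to 14.9) of genes with an upstream peak and in 5.02% of genes with no peak (exact adjusted p = 6.27e-11), beside 4.53% of all promoters. CAGCTG was in 10.1% of genes with an upstream peak and 6.07% of genes with no peak (exact adjusted p = 0.000679), beside 7.67%, and Ohler 7 in 6.55% of genes with an upstream peak and 4.01% of genes with no peak (exact adjusted p = 0.00962), beside 6.25%.

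Lower next to the TSS were A- and T-rich words. At 100 to 120 bp from the summit toward the gene, A+T content was 55.3% at upstream peaks. It was 60.5% in promoters with no peak, read from the point 195 bp upstream of the TSS. The part of base composition in the results next to the TSS, higher or lower, was not tested. TATAAA was in 65 windows (9.91%, 7.85 to 12.4) of genes with an upstream peak and in 22.3% of genes with no peak (exact adjusted p = 1.02e-14), beside 20.2% of all promoters. In the 50 bp before the TSS, where a TATA box acts, it stood in 5.47% of windows at upstream peaks and 15.8% at genes with no peak. TAATTA was in 2.13% of genes with an upstream peak and 5.42% of genes with no peak (exact adjusted p = 0.000380), beside 5.61%, and the GATA word GATAAG in 5.34% of genes with an upstream peak and 9.49% of genes with no peak (exact adjusted p = 0.000692), beside 9.19%. With a TSS window of 250 bp the differences of the homeodomain, GATA and CLAMP words no longer passed, and Ohler 7 was lost with a window of 1000 bp and in the list of replicate 2 alone. TCAGT was in 21.5% of genes with an upstream peak and 22.2% of genes with no peak (exact adjusted p = 0.761). The Adf1 word was not more frequent at the summits: 4.91% of upstream summits, 6.59% of flanks (exact adjusted p = 0.382) and 4.71% of all promoters of that length held it. Gene expression was not used here.

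Stronger upstream peaks held the word TATAAA more often and CGATA and Ohler 7 less often within 100 bp of the summit, as a description with no test. Summits lay a median of 195 bp before the TSS, so these counts are not of elements at their core promoter positions. In 4 classes of rising signal, with medians of 75.9, 113, 184 and 420, TATAAA stood in 25.8%, 36.0%, 37.1% and 44.7% of windows. Over the same classes CGATA stood in 33.1%, 27.5%, 27.5% and 21.8%, and Ohler 7 in 10.7%, 10.1%, 6.74% and 5.59%. CACTG was level at 46.1%, 46.6%, 46.6% and 44.1%. The median G+C content moved with them, at 36.8%, 34.8%, 33.3% and 32.8%.

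By gene class, upstream peaks were found at 656 of 13968 protein-coding genes (4.70%), with a median signal of 152 for the strongest peak of each. Cytosolic ribosomal protein genes had them at 12 of 92 (13.0%, 7.62 to 21.4), with a median signal of 130. The strongest were RpL23A with 264 (152 in replicate 1, 115 in replicate 2) at 91 bp, RpS5a with 188 (98.9 and 84.6) at 77 bp and RpS28b with 180 (90.1 and 99.3) at 33 bp. Of the 92, 21 (22.8%) had a peak near TSSs of both strands, beside 8.66% of all protein-coding genes, and 4 had a downstream peak. A peak of any kind stood at 36 (39.1%), beside 1984 of all 13968 genes (14.2%). Over all genes 156 had a downstream peak. Translation factor genes had upstream peaks at 7 of 54 (13.0%, 6.42 to 24.4), with a median signal of 196, and a peak of any kind at 12 (22.2%). After eIF6 came eIF3c, a subunit of the scaffold that recruits the small ribosomal subunit, with 379 (210 and 165) at 56 bp, and eIF5B, which joins the subunits, with 224 (123 and 102) at 130 bp.

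Several lists had more genes with a peak near TSSs of both strands than with an upstream peak. Over all protein-coding genes such peaks near both strands stood at 1209 of 13968 (8.66%). Of 75 mitochondrial ribosomal protein genes, 1 had an upstream peak (1.33%, 0.236 to 7.17), namely mRpL41, 20 (26.7%) a peak near TSSs of both strands, and 54 no peak. Of 87 genes of the respiratory chain and ATP synthase, 1 had an upstream peak (1.15%, 0.203 to 6.23), the ATP synthase subunit gene blw with 475 (253 and 212) at 138 bp, 13 (14.9%) a peak near TSSs of both strands, and 73 no peak. The proteasome list had 1 of 48, Rpn11, with 112 (54.1 and 53.5), and 6 (12.5%) near TSSs of both strands. The splicing list had 1 of 37, Sf3b3, with 71.5 (38.5 and 30.0) and in neither replicate's thresholded list, and 12 (32.4%) near TSSs of both strands. Of the 42 DNA replication genes 0 had an upstream peak, so that a share under 7.14% could go unseen, and 8 (19.0%) had one near TSSs of both strands.

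In the regulator lists, upstream peaks stood at 0 to 3 genes each, and the share of genes with a peak of any kind differed between lists. The list of insulator and promoter proteins had 3 of 27 (11.1%, 3.85 to 28.1): row, a BEAF-32-associated zinc finger protein, with 288 (158 and 127), BEAF-32 itself with 144 (107 and 42.6), and nsl1, of the nonspecific lethal complex, with 97.4 (72.9 and 33.6). The last pair were in the thresholded list of replicate 1 and not in that of replicate 2. In this list 8 genes had a peak near TSSs of both strands, 3 a downstream peak and 13 of 27 (48.1%) a peak of any kind, beside 1984 of all 13968 genes (14.2%). Polycomb and trithorax group genes had 1 upstream peak in 31, ph-p, and 7 near TSSs of both strands, 1 downstream and 8 (25.8%) of any kind. Cell cycle genes had upstream peaks at 2 of 47, the E2F partner Dp with 403 (240 and 175) and the spindle checkpoint kinase BubR1 with 95.3 (60.6 and 30.5), and 8 near TSSs of both strands, 3 downstream and 11 (23.4%) of any kind. Segmentation and Hox genes had 0 of 27, where a share under 11.1% could go unseen.

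Heat shock and chaperone genes had 2 of 34 (5.88%, 1.63 to 19.1), and both stood in the small heat shock cluster on 3L. Hsp27 had a signal of 858, and Hsp26 had 77.4 (37.7 and 42.8) and was in neither replicate's thresholded list. Hsp22 in the same cluster, with 90.1 at 501 bp, lay just outside the limit. Of the 8 genes listed for the MADF-BESS family, jigr1 had an upstream peak, with 508 (300 and 201) at 184 bp.

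**Figure D5:**
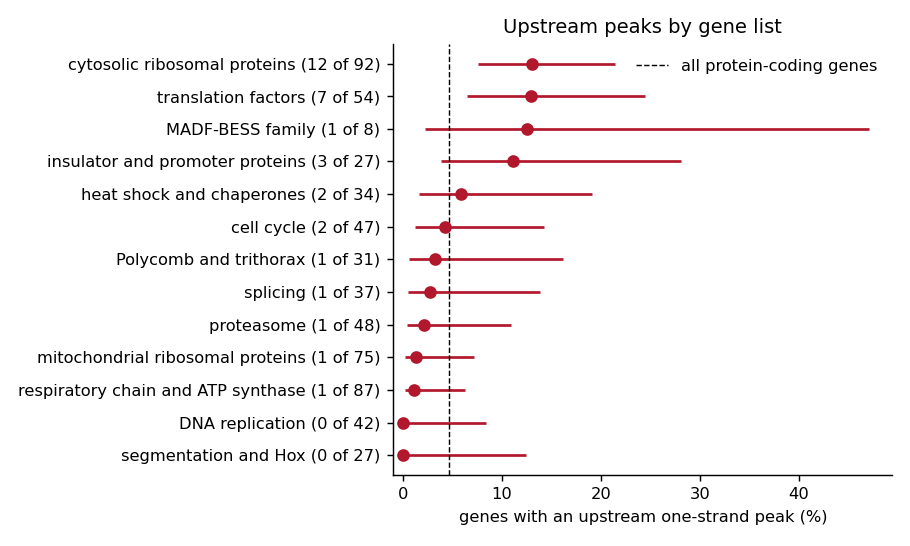
Share of the genes of each list that have an upstream peak, with 95% Wilson intervals and the count in brackets, beside the share over all protein-coding genes (dashed line, 4.70%). Cytosolic ribosomal protein genes (13.0%) and translation factor genes (13.0%) are the lists whose interval lies above the line, and no list was tested. Their shares with a peak of any kind (39.1% and 22.2%) were also above that of all genes (14.2%).

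Across the arms, upstream peaks numbered 161 on X, 114 on 2L, 143 on 2R, 138 on 3L and 157 on 3R. They were 21.5% of the peaks on X, 16.2% on 2L, 21.6% on 2R, 16.3% on 3L and 18.1% on 3R. Chromosome 4 had 0 peaks of any kind and Y had 5, none of them upstream. Genes with an upstream peak made up 6.60% of the genes on X, and 3.95% on 2L, 4.63% on 2R, 4.71% on 3L and 4.24% on 3R. The median signal on X was 134, and on the other bound arms 140 to 185. The bound genes were on the plus strand at 340 peaks and on the minus strand at 373.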

How the data were processed

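CG4404-eGFP ChIP-seq of 2 biological replicates was analysed from the authors' peak lists. The authors deposited peak lists for each replicate and for the pool, ranked or thresholded by IDR, on the dm6 assembly per the file headers. No source used here names the aligner or the peak caller. The deposited signal is the caller's own value and was used within a list, except where the values of a peak in the 2 replicates were compared. Those values were not adjusted for depth or scale, so which replicate is higher does not measure a difference in binding. The deposited ranked lists give the IDR as −log10, used for the threshold of 0.001. Every thresholded peak had an IDR of 0.01 or less. Read depth was not used, and precision is set by how many peaks there are.

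The pooled list held 3892 peaks, 57 of them off the 7 arms. Coordinates are 1-based. TSSs came from Ensembl release 115 (BDGP6.54, the dm6 assembly). Motifs and words were counted in the 201 bp at each summit and in a window 400 bp farther from the gene. A gene class was a list of names, described by counts alone. Fisher's, McNemar's and binomial tests were exact, two-sided and Benjamini-Hochberg adjusted within a comparison at 0.05 (scipy 1.17.1), and were tested on simulated data. Overlap meant at least 1 bp. Wilson intervals (95%) and the limit of 3 counts for a share of 0 cover counting error only. Named peaks are the 25 of highest signal found in both replicates, up to 3 per gene list, and those at the limits of the rule; peaks of genes with several, and those whose sequence is printed for a word, were named in addition after their values were seen. Sequences were printed only where the window overlaps no annotated UTR, and not for every such window. The members, lists and motifs were chosen with earlier results of these data known. Alternatives included other TSS windows, lists, flanks and window widths, leaving out each replicate, and 1 summit per merged region.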

Additional observations from a re-analysis of the deposited data

How the results depend on the processing

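Of 135 values recomputed under 13 alternatives, 108 kept their direction and their side of the threshold, or stayed within 1.5 times the count or within 7.07 bp of the median distance (the SD between replicates). A count can stay the same while the motifs or words in it change. The sign changed for 3, none past the threshold in either case: upstream minus divergent peaks was 1.48 points in the top 25% without replicate 1 (-1.88 without replicate 2), 0.26 points in the top 10% of signal, and 2.48 points in both replicates at an IDR of 0.001, against -5.11 and -4.03 points in the full list. With a TSS window of 250 bp the median distance was 134 bp, 2 motifs passed against downstream and 2 against divergent peaks, 3 motifs faced one way, and upstream minus divergent peaks came to -15.1 points in the top 25% and -12 points in both replicates, both past the threshold. With one of 1000 bp the median distance was 259 bp and 14 words passed. In the conservative list, at an IDR of 0.001 and in windows of 50 bp either side, 0 motifs passed against downstream peaks. At an IDR of 0.001 the differences from downstream peaks were 12.9 points (top 25%) and 4.33 points (both replicates) and did not pass. Windows of 50 bp either side gave 5 motifs against divergent peaks and 2 words. A flank at 1000 bp gave 8 motifs and 41 words.

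Leaving out either replicate gave a median distance of 187 to 197 bp. The differences from downstream peaks were 11.7 to 15.2 points (top 25%) and 8.0 to 11.6 points (overlap with the list of the other replicate). 0 motifs passed against downstream peaks, 0 to 2 faced one way, and 2 to 4 words passed. No paired analysis was possible because the study has 1 group. The cause of these changes was not tested. Without an input or untagged control here, enrichment that does not depend on CG4404 cannot be told apart from binding, the 24 calls with a signal under 20 all overlap other peaks, and the small number of downstream peaks limits that comparison.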
